A study of Mus musculus with 6 samples.

Results

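The RNA levels of 45 genes of the actin cytoskeleton and of cell motility were compared in bone marrow-derived macrophages (BMDMs) with and without a deletion in hnRNPD, the gene of the AU-rich element-binding protein AUF1. The rule for choosing them was a list of gene names with no threshold on a value: the 2 cytoplasmic actins, proteins that bind actin monomers or turn filaments over, the Arp2/3 complex, GTPases, WASP and WAVE proteins, coronins, capping and severing proteins, bundling and crosslinking proteins, membrane and adhesion linkers, non-muscle myosin II and vimentin. All 45 had counts, out of 18430 genes with at least 1 count, and all 45 were among the 11183 genes tested. The control group held 3 libraries of hnRNPD fl/fl BMDMs and the M-Δx3,4 group 3 libraries of LysCre+ hnRNPD fl/fl BMDMs, both of strain C57BL/6J. In the second group a Cre recombinase driven from the lysozyme M locus, which is active in myeloid cells, removes exons 3 and 4 of hnRNPD. The controls carry the same floxed allele without Cre, so an effect of Cre itself and an effect of the deletion cannot be told apart. All cultures grew for 10 days in medium conditioned by L929 cells, a source of the macrophage growth factor M-CSF, and then received 100 ng/ml LPS, the bacterial lipopolysaccharide sensed by TLR4, for 4 hrs. There was no library of cells without LPS. The sources used here do not state whether each library came from a separate mouse, so the p-values measure the spread between these libraries, part of which may be technical.

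Macrophages move, spread and engulf particles by building and dismantling actin filaments. Monomeric actin is held in reserve by thymosins and profilin, the Arp2/3 complex starts branched filaments when WASP or WAVE proteins switch it on, capping proteins stop growth at filament ends, and cofilin with its partners returns old filaments to monomers. Small GTPases set where this happens, while myosin II pulls on filaments and linkers such as talin, vinculin and moesin tie them to the membrane and to adhesion sites. AUF1 binds AU-rich stretches in the 3′ untranslated regions (3′ UTRs) of mRNAs and can alter their stability, so the reads at 3′ ends and the letters found there are described together.

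RNA was sequenced from its 3′ ends, and the deposited values are read counts over annotated 3′ UTR regions of mm10. The paper describes extending these regions upstream and downstream before counting. Lengths and positions below are those given with the counts. For Wasf2, Actr2, Actn4, Msn and Marcks, whose sites are printed below, they run past the transcript end. They thus hold bases beyond the annotated 3′ UTR, at least in these genes, and may still not be the whole stretch counted. The shortest lengths may be largely such bases. The regions of a transcript were summed and the transcript with the highest mean stood for its gene. The totals of these 1-per-gene counts ran from 2503213 to 3846120 in the 6 libraries, and values below are normalized counts, that is counts divided by the size factor of the library. Of the 45 transcripts, 38 were counted over 1 region and 7 over several (Capzb, Myl6 and Coro1b among them, whose positions below span all of them), with summed lengths from 249 to 6948 bases. All 10 macrophage markers had counts in every library, and they summed to 8053, 8871 and 11990 normalized counts in control and 8739, 6851 and 7538 in M-Δx3,4. At an unadjusted p under 0.05, 2 of the 10 were lower in M-Δx3,4, Lyz2 (log2 fold change -0.94) with no overlap and Spi1 (-1.06) with overlap. Of all genes tested 2.89% were lower at this threshold. Lyz2 is the gene of lysozyme M, whose locus drives Cre in the M-Δx3,4 group. For this gene an effect of that allele and a change in the cells cannot be told apart. Markers of each other cell type summed to less than those of macrophages in every library. Some single ones, such as S100a9 (mean 220) and Igkc (158), were above the macrophage marker Csf1r (116). Fibroblast markers summed to 79.7, 80.6 and 22.0 in the control and 83.8, 9.75 and 8.26 in the M-Δx3,4 libraries. Those of B cells were 291, 326 and 378 against 163, 143 and 144, a difference carried by Igkc, an immunoglobulin light chain. Neutrophil markers summed to 391.8 to 731, erythroid and megakaryocyte markers to 128 to 305, dendritic cell markers to 4.49 to 22.0 with Cd209a and Clec9a at 0, and T and NK cell markers to 6.12 to 35.9 with Cd3e, Cd3g, Cd2, Nkg7 and Ncr1 at 0. Pf4 (mean 163) held most of the erythroid and megakaryocyte sum. The part of these other cells in the results below was not tested. Among 4720 genes with a mean of at least 50, 61.9% of the variance lay on the first principal component, which set control replicate 3 (54.7) against control replicate 1 (-30.2), with the M-Δx3,4 libraries between them (-21.1 to -5.17). The targeted gene Hnrnpd had 324, 188 and 110 normalized counts in control and 136, 125 and 158 in M-Δx3,4 BMDMs at its most abundant transcript (log2 fold change -0.57, SE 0.395), which overlapped. Another Hnrnpd transcript, ENSMUST00000072750, had 172, 105 and 73.4 in control and 52.0, 12.7 and 15.8 in M-Δx3,4, and every M-Δx3,4 library was lower (log2 fold change -2.11 in the fit of all transcripts, unadjusted p = 0.00144, adjusted p = 0.985 from edgeR). ENSMUST00000072750 was picked by name, and further Hnrnpd transcripts are not given here, so it does not stand for all of them. The 2 transcripts shown were counted over 3′ UTR regions and not over the deleted exons, so neither shows the deletion itself. The paper reports reduced hnRNPD RNA isoforms in the same libraries and reduced AUF1 protein in BMDMs of this genotype.

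No actin cytoskeleton gene differed between M-Δx3,4 and control BMDMs after adjustment over all genes tested, where edgeR's quasi-likelihood test gave a smallest adjusted p of 0.979 among the 45. By the unadjusted p, 1 gene passed 0.05, Marcks, which was higher in M-Δx3,4. Among all genes tested 4.18% passed, 1.3% higher and 2.89% lower, so 1 of 45 was not above the background. The log2 fold changes ran from -0.57 for Coro1b to 0.84 for Marcks, 20 of them positive and 25 negative, and none reached an absolute value of 1. Of all genes tested 11.4% did, and of genes with a mean of at least 50, to which 43 of the 45 belonged, 1.69%, so 0 of 45 is near the share for abundant genes. The median was -0.04, against -0.03 over all genes tested. The median absolute log2 fold change was 0.32, against 0.35 over all genes and 0.27 over genes with a mean of at least 50. In 4 of the 45 (8.89%) the groups did not overlap, as in 8.54% of all genes: Arpc5 was higher in every M-Δx3,4 library, and Tmsb10, Cap1 and Coro1b were lower. With 3 libraries against 3 the two-sided exact permutation test cannot go below p = 0.1, which it gave for each of these. In bulk RNA, fewer cells of a type and less RNA per cell cannot be told apart.

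**Figure D1:**
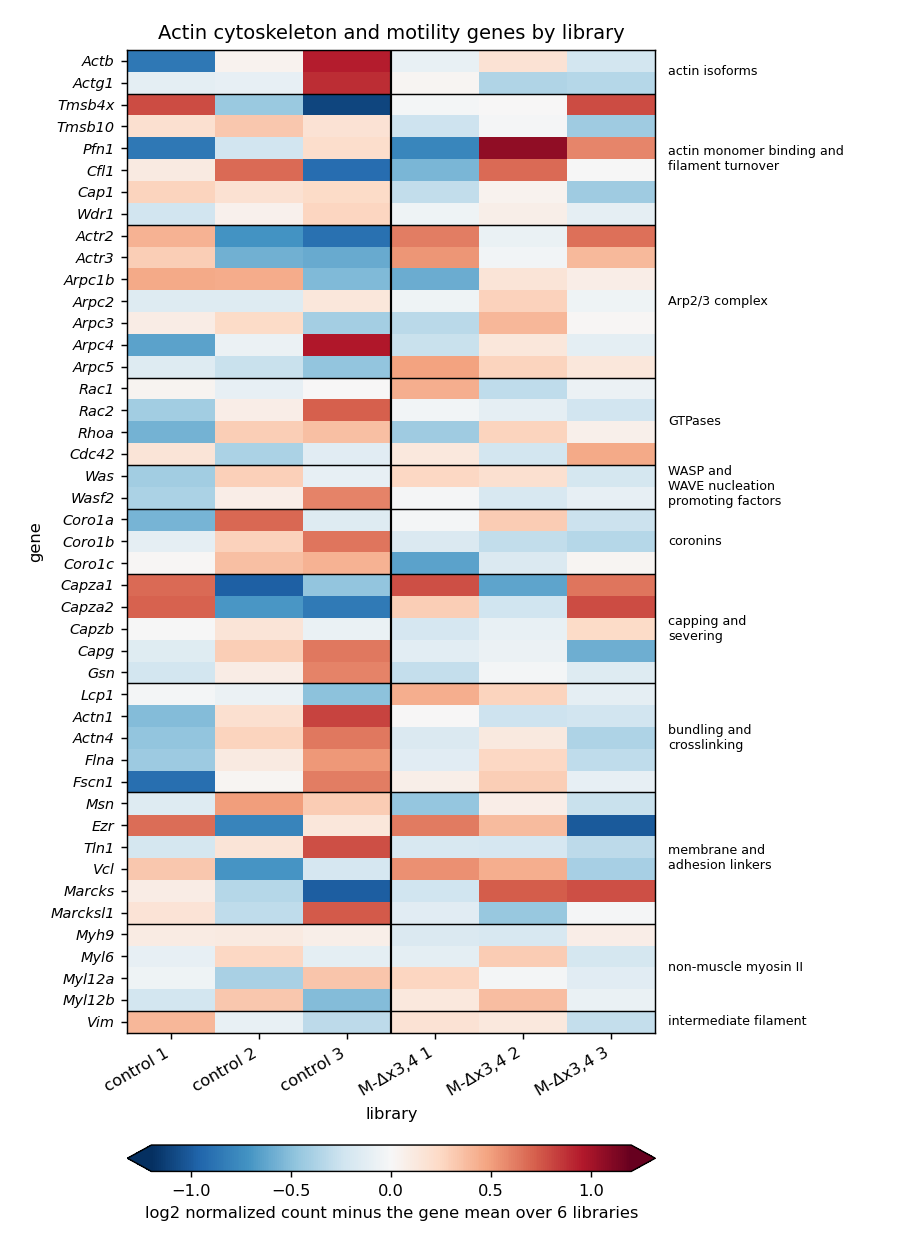
Heat map of the 45 genes (rows, grouped by role) in the 6 libraries (columns, control left and M-Δx3,4 right of the line). Colour gives the log2 normalized count minus the gene's mean over the libraries, red higher and blue lower. Control replicates 1 and 3 often carry opposite colours, as for Actb and Tmsb4x, and no role is of one colour across the 3 M-Δx3,4 libraries.

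The actins, the monomers from which filaments are built, were abundant and variable. Actb (chr5:142902866-142903797, minus strand), β-actin, had 23193, 43407 and 81092 normalized counts in control and 39637, 47550 and 36036 in M-Δx3,4 BMDMs. The M-Δx3,4 values all lay within the span of the control values, whose coefficient of variation (CV) was 59.7%, against 14.3% in M-Δx3,4. The log2 fold change was -0.26 (SE 0.386), and it turned to 0.31 without control replicate 3. Actg1 (chr11:120345441-120346389, minus strand), γ-actin, had 3585, 3637 and 7189 in control and 3957, 3035 and 3078 in M-Δx3,4, a log2 fold change of -0.52 (SE 0.335, unadjusted p = 0.146 from edgeR). Control replicate 3 was the highest library for both actins, and without it the value for Actg1 was -0.10. There were 6.47, 11.9 and 11.3 Actb counts per Actg1 count in control and 10.0, 15.7 and 11.7 in M-Δx3,4, and the groups overlapped.

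Among the genes of monomer binding and filament turnover, 3 had positive and 3 negative log2 fold changes. Tmsb4x (chrX:167206844-167207500, minus strand) encodes thymosin β4, the main actin-sequestering peptide, and was the most abundant of the 45 genes. It had 259935, 110685 and 70389 normalized counts in control and 148923, 151106 and 259337 in M-Δx3,4 BMDMs. Control replicate 1 and M-Δx3,4 replicate 3 were alike and the groups overlapped (log2 fold change 0.34, SE 0.421). Its relative Tmsb10 (chr6:72957406-72957808, minus strand) encodes thymosin β10, which also binds monomers. It had 1515, 1662 and 1497 in control and 1112, 1309 and 983 in M-Δx3,4, so every M-Δx3,4 library was lower (log2 fold change -0.46, SE 0.284, unadjusted p = 0.13). Cap1 (chr4:122858798-122860133, minus strand), a cyclase-associated protein that helps to recycle monomers, had 504, 474 and 492 in control and 340, 432 and 310 in M-Δx3,4. The control CV was 3.02%, and the log2 fold change was -0.44 (SE 0.295, unadjusted p = 0.157). The region of Cap1 overlaps that of Ppt1 on the other strand, whose count was 48.9% of its own. Whether the authors' counting used strand is not given in the sources used here. Pfn1, profilin, which loads monomers with ATP and feeds them to growing ends, had the largest positive value of this group, 0.70 (SE 0.438), with overlapping groups. It ran from 0.29 without M-Δx3,4 replicate 2 to 1.07 without M-Δx3,4 replicate 1. Cfl1, cofilin, which severs filaments, had 0.03, and Wdr1, which aids cofilin, -0.07.

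**Figure D2:**
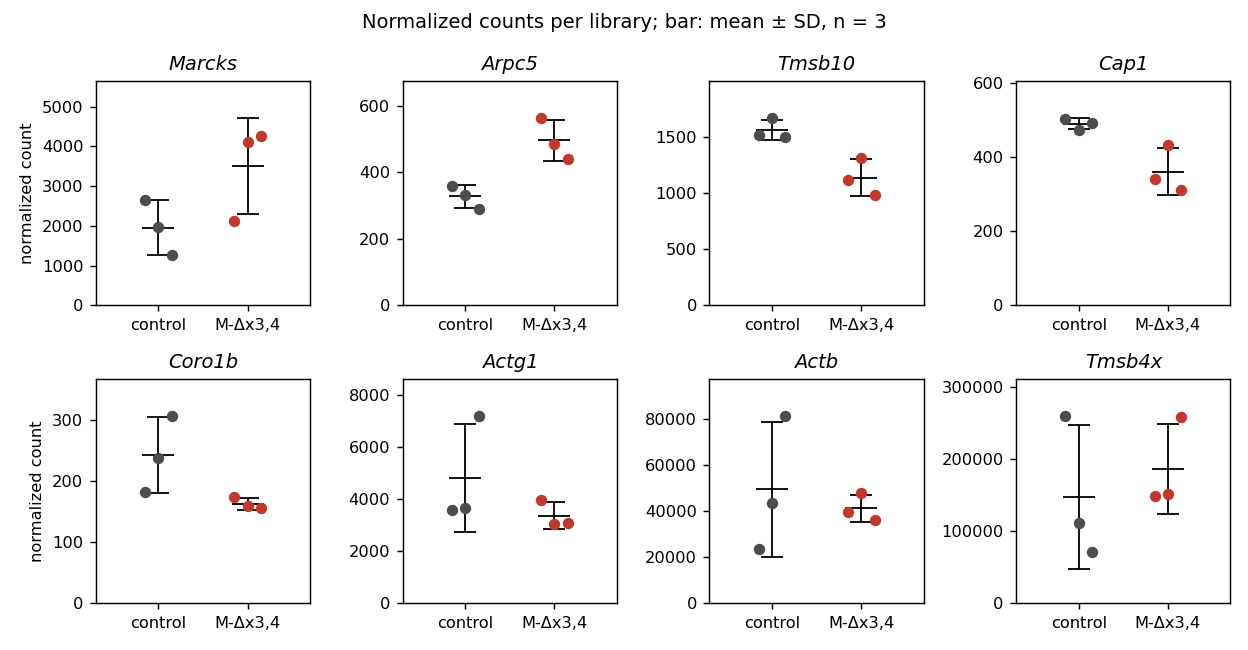
Normalized counts (vertical axes, from 0) of 8 genes in the 3 control (grey) and 3 M-Δx3,4 (red) libraries, with the mean and SD of each group. The libraries separate for Arpc5, Tmsb10, Cap1 and Coro1b, and overlap for Marcks, Actg1, Actb and Tmsb4x.

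The Arp2/3 complex, which nucleates branched filaments, was counted for its 2 actin-related proteins and 5 of its other subunits. Of the 7 genes, 5 had positive log2 fold changes, with a median of 0.12, and none passed the unadjusted p. Arpc5 (chr1:152774323-152775846, plus strand), a peripheral subunit, had 360, 333 and 290 normalized counts in control and 562, 485 and 441 in M-Δx3,4 BMDMs. The lowest M-Δx3,4 library was above the highest control library, with a log2 fold change of 0.60 (SE 0.295, unadjusted p = 0.063). Leaving out any 1 library gave values from 0.50 to 0.67. Actr2 and Actr3, the paired actin-related proteins that form the first monomers of a branch, had 0.71 (SE 0.398) and 0.54 (SE 0.334). Both were high in control replicate 1 (318 and 1568) and lower in control replicates 2 and 3 (145 and 127, 856 and 840), and their M-Δx3,4 values (224 to 377 and 1242 to 1837) spanned the first of these. Arpc4 (chr6:113388777-113390697, plus strand), a core subunit, was the most abundant and ran the other way, with 2891, 4302 and 8791 in control and 3747, 4975 and 4152 in M-Δx3,4 (log2 fold change -0.31, SE 0.379). Its sign changed to 0.26 without control replicate 3. Arpc1b had -0.27, Arpc2 0.12 and Arpc3 0.06. Values of both signs were thus found within the complex, and no subunit passed the test.

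No GTPase passed the unadjusted p, and the groups overlapped for all 4. Rac1, which drives lamellipodia, had a log2 fold change of 0.07, Rac2, its blood cell relative, -0.32, Rhoa, which acts on myosin contraction, -0.09, and Cdc42, which acts through WASP proteins, 0.25. The ratio of Rac1 to Rac2 counts was 2.13, 1.37 and 0.949 in control and 2.15, 1.36 and 1.73 in M-Δx3,4, and did not separate the groups. Of the nucleation promoting factors, Was, the WASP of blood cells, had 0.14, and Wasf2, the WAVE protein of lamellipodia, -0.25. The coronins, which work with Arp2/3 and cofilin at branched networks, all had negative values. Coro1b (chr19:4150533-4154284, plus strand) had 183, 238 and 307 normalized counts in control and 174, 160 and 155 in M-Δx3,4 BMDMs. Every M-Δx3,4 library was lower, although the highest of them (174) was near control replicate 1 (183). The log2 fold change was -0.57 (SE 0.325, unadjusted p = 0.102), and -0.36 without control replicate 3. Coro1c had -0.51 (SE 0.300) and Coro1a, the leukocyte coronin, -0.06. The 3 ratios among the coronins overlapped between the groups.

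Among the capping and severing genes, the subunits of one heterodimer differed in how even they were across libraries. Capzb (chr4:139288964-139292007, plus strand), the β subunit of capping protein, had 24654, 27509.5 and 23341 normalized counts in control and 21468, 23172 and 28989.5 in M-Δx3,4, with a log2 fold change of -0.04 (SE 0.271). It was the third most abundant gene and among the most even, with a control CV of 8.47%. The α subunits Capza1 and Capza2 had control CVs of 61.7% and 64.7%, and log2 fold changes of 0.47 (SE 0.468) and 0.44 (SE 0.427). The ratio of Capza1 to Capza2 ran from 0.216 to 0.342 in control and from 0.201 to 0.369 in M-Δx3,4 and overlapped between the groups. Capg, a capping protein of macrophages, had -0.54 (SE 0.335), and Gsn, gelsolin, which severs and caps, -0.34. Of the bundling and crosslinking genes, Lcp1, L-plastin, had 0.40, Fscn1, fascin, 0.06, Flna, filamin A, -0.16, and the α-actinins Actn1 and Actn4 had -0.41 and -0.34. The groups overlapped for all 5.

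Marcks and Marcksl1 encode related proteins that bind the membrane and actin filaments and leave the membrane when phosphorylated by protein kinase C. Marcks (chr10:37133126-37136107, minus strand) had 2647, 1963 and 1254 normalized counts in control and 2112, 4119 and 4271 in M-Δx3,4 BMDMs. M-Δx3,4 replicates 2 and 3 were above every control library, while replicate 1 lay within the control range. The log2 fold change was 0.84 (SE 0.365, unadjusted p = 0.0378, adjusted p = 0.979 from edgeR). The unadjusted p rose above 0.05 without control replicate 2 (0.084), control replicate 3 (0.0986), M-Δx3,4 replicate 2 (0.122) or M-Δx3,4 replicate 3 (0.143), and the log2 fold change then ran from 0.61 to 0.85. It also rose to 0.0624 once the trend with GC content was removed from each library (log2 fold change 0.61). Marcksl1 (-0.45, SE 0.323) had the opposite sign, and there were 0.600, 0.614 and 0.191 Marcks counts per Marcksl1 count in control and 0.589, 1.44 and 1.10 in M-Δx3,4. The difference of this ratio, 1.24 on the log2 scale, was the largest of the 12 pairs of related genes compared. It overlapped between the groups by M-Δx3,4 replicate 1, as did the other 11 pairs by at least 1 library, and the adjusted p of the two-sided exact permutation tests over the 12 pairs was 0.72 to 0.9.

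Msn (chrX:96166635-96168801, plus strand), moesin, which ties filaments to the plasma membrane of leukocytes, had 4795, 7571 and 6596 normalized counts in control and 3879, 5658 and 4447 in M-Δx3,4 (log2 fold change -0.44, SE 0.300), and the groups overlapped. Its relative Ezr, ezrin, was at 12.3 on average and Vcl, vinculin, at 7.47, close to the limit of what these libraries can resolve. Their log2 fold changes were 0.02 (SE 0.629) and 0.40 (SE 0.702). The region of Vcl overlaps one of Ap3m1 on the other strand, whose count was 180% of its own, and that of Coro1b one of Rps6kb2 with 9.87%. Tln1, talin, which links integrins to actin, had -0.53 (SE 0.324). Among the myosin II genes, Myl6 (chr10:128490748-128492425, minus strand), the essential light chain, had 5899, 7489 and 5816 in control and 5840, 7823 and 5450 in M-Δx3,4, and a log2 fold change of -0.01 (SE 0.288). The groups were nearly superimposed. Myh9, the heavy chain, had -0.19, and the regulatory light chains Myl12a and Myl12b had 0.05 and 0.25. The region of Myl12b coincides with one of Gm49909 on the same strand, which held 98.7% as many counts, so these reads cannot be assigned to 1 of the 2. Vim, vimentin, the intermediate filament protein of mesenchymal and myeloid cells, had -0.01.

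**Figure D3:**
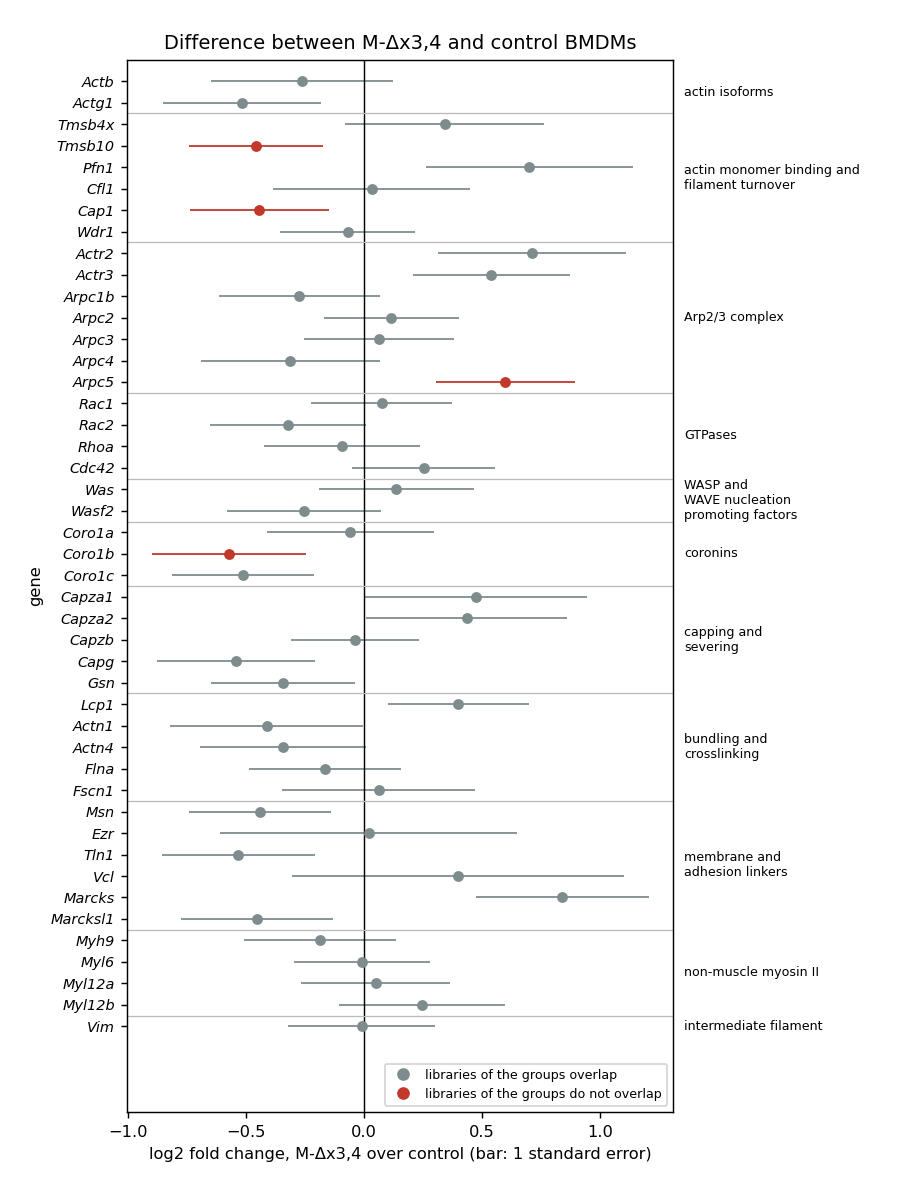
Log2 fold change of M-Δx3,4 over control (horizontal axis, bar 1 standard error) for the 45 genes, grouped by role. Red points mark the 4 genes whose libraries do not overlap, Arpc5 to the right of 0 and Tmsb10, Cap1 and Coro1b to the left. All points lie between -0.57 and 0.84.

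The 45 genes held a large share of each library. Their counts made up 13.01%, 8.30% and 8.01% of the 1-per-gene counts in control and 9.58%, 9.62% and 13.3% in M-Δx3,4 BMDMs. Tmsb4x alone took 9.25%, 3.74% and 2.29% in control and 5.40%, 5.08% and 8.98% in M-Δx3,4, and Actb took 0.826%, 1.47% and 2.64% against 1.44%, 1.60% and 1.25%. The share of Tmsb4x was highest where that of Actb was lowest in each group, so that there were 11.2, 2.55 and 0.868 Tmsb4x counts per Actb count in control and 3.76, 3.18 and 7.20 in M-Δx3,4. With Tmsb4x set aside, the other genes held 4.13%, 4.74% and 5.85% of the remaining counts in control and 4.42%, 4.78% and 4.70% in M-Δx3,4 BMDMs. The two-sided exact permutation test gave p = 0.5 to 1 for these shares, and the libraries of both groups overlapped in each. Per kilobase of counted region, the order by mean was Tmsb4x, Actb, Capzb, Myl6 and Actg1, and the lowest were Ezr and Vcl. Reads here come from the 3′ end, so a count per kilobase is not proportional to the number of transcripts.

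**Figure D4:**
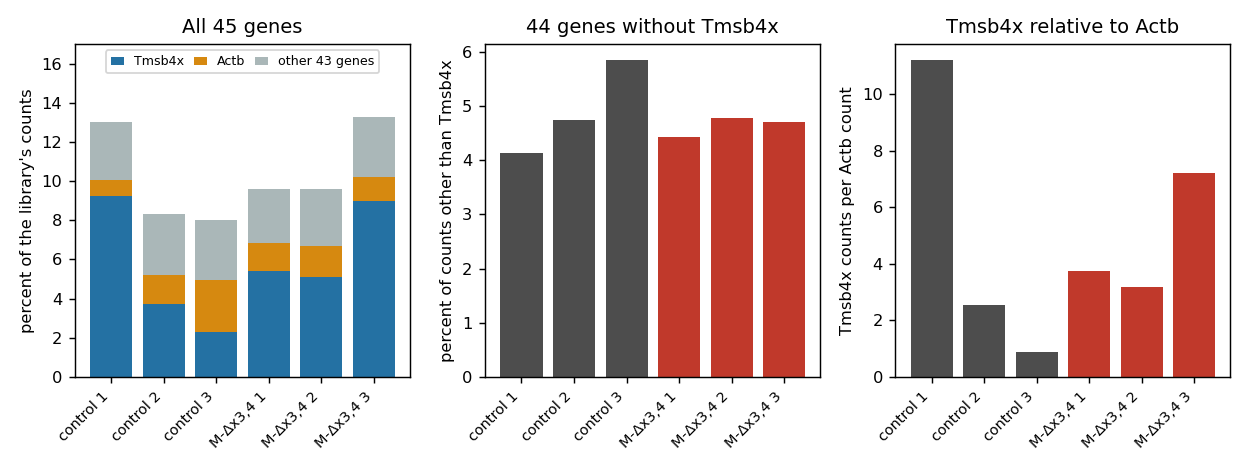
Bars per library (horizontal axis) of the percent of counts held by Tmsb4x, Actb and the other genes (left), the percent held without Tmsb4x (middle) and the number of Tmsb4x counts per Actb count (right). The total is highest in control replicate 1 (13.01%) and M-Δx3,4 replicate 3 (13.3%), where Tmsb4x is highest, and without Tmsb4x the libraries lie between 4.13% and 5.85%.

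Control libraries were less alike than M-Δx3,4 libraries. The median CV was 32.0% in control and 17.6% in M-Δx3,4 libraries, and in 31 of the 45 (68.9%) it was larger in control, as in 73.5% of 4720 genes with a mean of at least 50. Tmsb4x was higher in control replicate 1 than in control replicate 3 by 1.88 on the log2 scale, and Capza2, Actr2, Capza1 and Marcks by 1.55, 1.32, 1.15 and 1.08. Actb, Arpc4, Fscn1, Actn1 and Rac2 had values of -1.81, -1.60, -1.52, -1.33 and -1.13. This log2 ratio of control 1 to control 3 fell with the GC content of the last 500 bases of the transcript. Across the 45 genes Pearson's correlation was -0.44 and Spearman's -0.41, and across 4713 genes with a mean of at least 50 they were -0.51 and -0.62. Genes share their libraries and are not independent replicates. Of the 13 genes under 40% GC, such as Actr2 (26.0%), Actr3 (31.4%) and Capza2 (31.6%), 9 were higher in control replicate 1, with a median of 0.71. Of the 15 genes at 50% or more, such as Tln1 (56.8%), Coro1b (56.6%) and Fscn1 (53.4%), 5 were, with a median of -0.75. The log2 fold change between the groups followed the same property. Its median was 0.40 under 40% GC, -0.04 from 40% to 50% and -0.27 at 50% or more (Pearson's correlation -0.50 and Spearman's -0.44 over the 45 genes, -0.31 and -0.48 over the 4713). Arpc5 was at 38.0% and Marcks at 34.6%, while Tmsb10 was at 59.6% and Cap1 at 44.4%. The part of GC content in these differences was not tested beyond the fit with the trend removed. In that fit the log2 fold changes were 0.40 for Arpc5, 0.39 for Actr2, -0.27 for Tmsb10, -0.28 for Coro1b and -0.46 for Cap1. Those of Actn1 (-0.81), Msn (-0.73), Actn4 (-0.57) and Wasf2 (-0.42) were over 1.5 times larger than in the fit without this step. The absolute value was larger in 22 of the 45 genes and smaller in 23, and Pfn1 alone passed the threshold (0.98, unadjusted p = 0.0216 from edgeR).

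**Figure D5:**
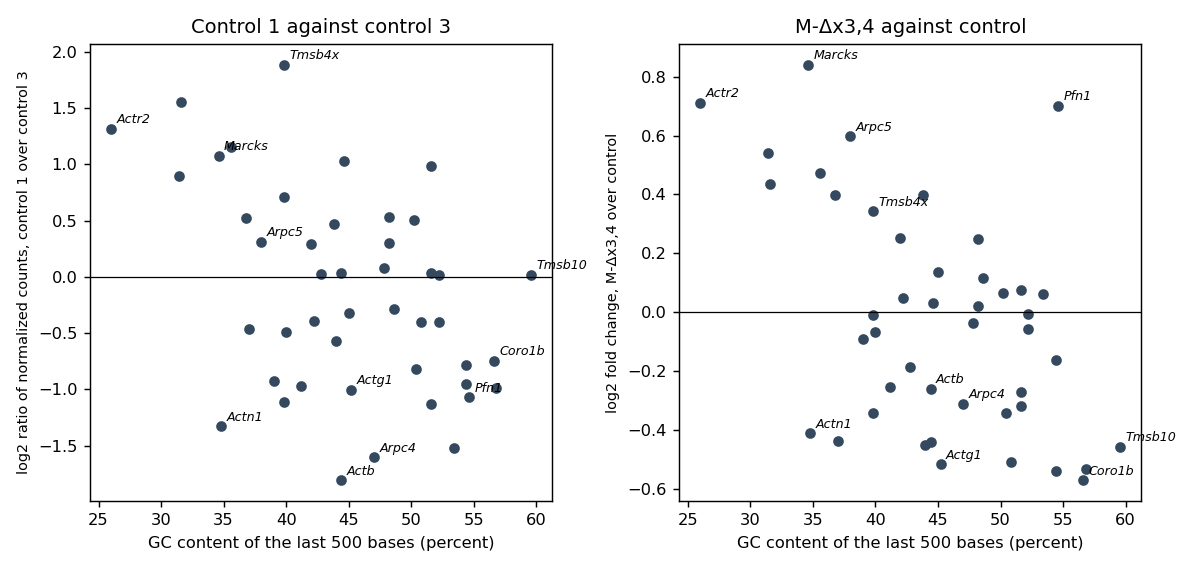
The 45 genes by the GC content of the last 500 bases of the transcript (horizontal axes, percent), against the log2 ratio of control replicate 1 to control replicate 3 (left) and the log2 fold change of M-Δx3,4 over control (right). Both fall from left to right, with Pearson's correlations of -0.44 and -0.50. Pfn1 lies apart at upper right in the second.

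Without control replicate 1, the library at one end of the principal component, 11 of the 45 genes had an unadjusted p under 0.05, with 7 higher and 4 lower in M-Δx3,4 BMDMs. In that fit 16.8% of all genes passed, 8.64% higher and 8.13% lower, and the smallest adjusted p among the 45 was 0.172. The higher genes were Actr2 (1.24), Capza2 (1.11), Marcks (1.12), Tmsb4x (1.04), Actr3 (0.90), Capza1 (1.10) and Arpc5 (0.67), and the lower ones Tln1 (-0.73), Coro1b (-0.74), Capg (-0.72) and Actg1 (-0.69). No gene among the 45 had an adjusted p under 0.05 with any other library left out either, and the number with an unadjusted p under 0.05 was then 0 to 2.

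Because AUF1 binds AU-rich elements, the last 500 bases of the representative transcripts (GENCODE transcripts of GRCm38, the assembly of mm10) were searched on the sense strand for the pentamer ATTTA and the nonamer TTATTTATT, which contains it. The pentamer was found in 18 of the 43 genes with a sequence of that length (41.9%), against 49.5% of 10044 genes tested, and the nonamer in 1 (2.33%, against 2.45%). The 18 genes with the pentamer had a median log2 fold change of 0.03 and the 25 without it -0.07, beside 0.04 and -0.10 over all genes. The pentamer holds no G or C, and the log2 fold change fell with the GC content of the same 500 bases. The part of GC content in this split was not tested. The nonamer was in Wasf2, and Actr2 held the most pentamers (5), followed by Msn and Actn4 (3 each). Marcks held 1. The sites are printed to show what such letters look like in these genes, 5′ to 3′ on the sense strand, with the motifs in capitals:
Wasf2, chr4:133199449-133199477, plus strand: ccacaattttTTATTTATTtttttatttt
Actr2, chr11:20062707-20062735, minus strand: gatgtATTTAtatatgtaataATTTAgaa
Actn4, chr7:28893549-28893577, minus strand: ctATTTActttattaacttacggATTTAt
Msn, chrX:96168135-96168163, plus strand: ggtcatacaatacATTTAaaatgtactta
Marcks, chr10:37133588-37133616, minus strand: tttaacagctgagATTTAttaagatgcat 
Each lies in the annotated 3′ UTR, between 242 bases (Marcks) and 432 bases (Actr2) before the transcript end. Wasf2, with the nonamer, had 293, 403 and 575 normalized counts in control and 377, 333 and 356 in M-Δx3,4, which lay inside the control range. A match to these letters is not evidence that AUF1 binds there, and its absence from this window says nothing about binding elsewhere in the transcript.

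For 12 of the genes a second annotated transcript was counted over a shorter stretch of the same 3′ UTR, which allows the share of the reads in the shorter stretch to be compared. Reads in it belong to both regions, so the share marks where reads fell and not the amount of each isoform. The lengths given here may include bases past the annotated end of each transcript, so a short stretch may hold little 3′ UTR. In Wdr1 the shorter stretch (468 of 1242 bases) held 12.8%, 12.3% and 13.6% of the reads in control and 11.4%, 6.39% and 7.41% in M-Δx3,4, and every M-Δx3,4 library was lower (two-sided exact permutation test, p = 0.1, the lowest it can give here). Wdr1 alone of the 12 genes did not overlap, and by normalized counts 8.54% of all genes tested did not, so its values are a description. In Actg1 (257 of 949 bases) the shares were 23.8%, 18.9% and 25.1% against 15.1%, 13.5% and 20.1%, which overlapped (p = 0.2, exact permutation test). When the longest counted region stood for each gene, Actg1 had a log2 fold change of -1.05 (unadjusted p = 0.0258 from edgeR), in place of -0.52. In Arpc4 (488 of 1921 bases) the control shares alone ran from 48.3% to 73.1%, with 55.0% to 66.0% in M-Δx3,4. In Actb the shorter stretch held 87.0% to 94.6% of the reads in all libraries, and in Actn4 51.4% to 70.7%. In the remaining 7 genes, Arpc1b, Rac1, Wasf2, Lcp1, Fscn1, Myl12a and Myl12b, the groups overlapped as well.

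The wider actin machinery gave a similar picture. Of 141 further genes of nucleation, turnover, bundling, adhesion, myosin and GTPase control, 120 passed the filter on low counts, and 1 was higher and 2 were lower in M-Δx3,4 at an unadjusted p under 0.05, with none under 0.05 after adjustment. These 2.5% were below the 4.18% of all genes tested, so the values of the 3 genes are a description. Cyfip1, a subunit of the WAVE complex, had 593, 448 and 510 normalized counts in control and 903, 715 and 786 in M-Δx3,4 (log2 fold change 0.63, SE 0.292, unadjusted p = 0.0488), with no overlap. Tagln2, transgelin 2, which bundles filaments, had 493, 575 and 1261 against 351, 495 and 352 (-0.96, SE 0.382, unadjusted p = 0.0257), with control replicate 3 far above the rest. Arhgef1, a guanine nucleotide exchange factor, had 22.4, 55.8 and 108 against 22.1, 20.5 and 29.3 (-1.36, SE 0.516, unadjusted p = 0.0205), and control replicate 1 lay among the M-Δx3,4 libraries. The median log2 fold change of the 120 was -0.01. By group, it was 0.00 for the 21 genes of nucleation and the WAVE complex, -0.23 for the 19 of turnover, capping and severing, 0.09 for the 19 of bundling, tropomyosins and the membrane skeleton, -0.23 for the 15 of adhesion plaques, -0.22 for the 17 myosins and kinases and 0.19 for the 29 GTPases and their regulators. In 7 of the 120 (5.83%) the groups did not overlap, which is below the 8.54% of all genes.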

How the data were processed

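The authors prepared 3′ mRNA-Seq libraries (QuantSeq FWD), aligned reads to mm10 with TopHat2 2.1.1 and then Bowtie2 (the sources differ on its version), and used metaseqR2 to count reads on 3′ UTR regions. The raw read counts they deposited were used here. A second deposited table, of the authors' own comparison by 7 methods, was not used, nor were its 24 columns of values per sample. Counts of a transcript's regions were summed, 1 transcript per gene was kept by its mean, and genes above the median normalized count (6.73) in at least 1 library were tested with edgeR 4.0.16 (quasi-likelihood, median-of-ratios factors, R 4.3.3), with Benjamini-Hochberg adjustment over 11183 genes. DESeq2 1.42.0 and limma-voom (limma 3.58.1) were alternatives. Permutation tests were exact, and those of single genes used log2(normalized count + 0.5). Tests of shares and of Tmsb4x per Actb used the values as given, and those of related pairs the log2 ratio of counts + 0.5. The 6 libraries held 5852374 to 9008878 counts over all transcripts, in which overlapping transcripts repeat reads. On simulated data with 11182 genes, an unadjusted p under 0.05 was found for 22 of 50 genes changed by 1 on the log2 scale. It was found for 42 of 50 changed by 2 and for 4.45% of unchanged genes. An adjusted p under 0.05 was found for 3 of 50 changed by 1 and for 19 of 50 changed by 2. It was also found for 6 of 10982 unchanged genes. The simulation drew genes independently and with the same dispersion in both groups, while the control libraries here were less alike. Whether these shares hold for the 6 libraries was not tested. GC content came from the transcript sequences. The members and lists were chosen with earlier results of these data known. By rule every member was named, with values per library for members that passed the unadjusted p or did not overlap, both actins, the 6 most abundant members and Hnrnpd, and wider-list genes were named if they passed the unadjusted p. Sites printed beyond Wasf2, and members whose values are given beyond this rule, were chosen after their values were seen.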

Additional observations from a re-analysis of the deposited data

How the results depend on the processing

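The median log2 fold change of the 45 genes stayed between -0.14 and 0.04 under the 16 alternatives, and 27 of the 45 kept their sign in all of them. The number of the 45 with an unadjusted p under 0.05 (1 in the reported fit) was 2 with TMM factors, with no filter, with the longest counted region and with DESeq2, 0 at a threshold of 0.01, and 0 to 11 with each library left out, the 11 without control replicate 1. For all genes (468 reported) it was 784 with no filter, 247 with at least 10 counts in every library, 76 at 0.01 and 252 to 1791 with a library left out, the 1791 without control replicate 1. For the wider actin list (3 reported) it was 0 at 0.01 and 0 to 28 with a library left out. No gene had an adjusted p under 0.05 in the reported fit, against 54 with no filter, 2 with DESeq2 and 18 without control replicate 1, and none of these was among the 45.

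Whether the replicate numbers shared by the groups pair the libraries was not settled. The correlations of deviations were -0.21, 0.54 and -0.31 for numbers 1, 2 and 3. Libraries of different numbers were not compared, so these values cannot show whether the numbers pair them. With the replicate block in the fit, 0 of the 45 genes, 1 of the wider list and 307 of all genes had an unadjusted p under 0.05.

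Signs turned for genes near 0 or resting on 1 library. With a library left out, Actb ranged from -0.60 to 0.31, Arpc4 from -0.61 to 0.26, Capzb from -0.177 to 0.0533 and Myl6 from -0.179 to 0.124, with 0.31 and 0.26 reached without control replicate 3. Capzb turned to 0.00961 with TMM factors and 0.0302 with the GC trend removed. Myl6 turned to 0.0407 with TMM factors, 0.0246 with library totals, 0.0182 with all transcripts, 0.0212 with the longest region and 0.139 with the GC trend removed. Arpc5 passed an unadjusted p of 0.05 with TMM factors, with DESeq2 and without control replicate 1. Pfn1 passed it with no filter, with the GC trend removed, without control replicate 3 and without M-Δx3,4 replicate 1. The cause was not tested. The 3 libraries a group and the spread of the control libraries limit the size of change that can be seen, and genes under about 10 counts, such as Vcl, are not resolved at this depth.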
